A study of Mus musculus with 37 samples.

Results

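The hedgehog pathway was described through 9 of the 19938 genes that the arrays read with probe sets carrying exactly 1 gene symbol: the ligand Shh, the receptor Ptch1, the coreceptor Gas1, the transducer Smo, the transcription factors Gli1, Gli2 and Gli3, their binding partner Sufu and the ligand antagonist Hhip. The genes were chosen by name as core members of the pathway, though with earlier results of these data known. Each was read by 1 probe set of its own. RNA of whole right lungs of 2 inbred mouse strains, A/J and C57BL/6J (B6), was hybridized to Mouse Gene 1.0 ST arrays, with no mutation or treatment in any group. A/J lungs were collected daily from E15.5 to E20.5 and at birth (PN0). The B6 series lacked E19.5 and E20.5. Each of the 12 groups had 3 replicates, and a replicate was 1 litter with the lungs of 3 males pooled. Pups of B6 were born about a day earlier than those of A/J, so lungs at PN0 shared the event of birth and not the age after conception. All values are log2 signals of a probe set on the scale of the Robust Multichip Average (RMA), a difference of 1 is 2-fold, and levels were compared between groups for the same gene and never between genes.

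In the developing lung the epithelium secretes SHH, and the signal is received mainly by the mesenchyme beneath it. PTCH1 holds the membrane protein SMO silent until the ligand binds, GAS1 helps to bind the ligand, and active SMO acts through the primary cilium to free the GLI proteins from SUFU. GLI1 and GLI2 are mostly activators and GLI3 is mostly processed to a repressor, whereas HHIP binds and sequesters the ligand. Ptch1, Gli1 and Hhip are themselves induced by the signal, and their mRNAs are commonly read as a measure of it. The pathway is known for directing branching of the airways and growth of the mesenchyme before the saccular stage, the period in which the present collection began.

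The 9 genes lay on separate stretches of the genome (GRCm38.p6): Shh at chr5:28456840-28467101, Ptch1 at chr13:63508328-63573460, Smo at chr6:29735497-29761366, Gli1 at chr10:127329882-127341579, Gli2 at chr1:118834061-119054405, Gli3 at chr13:15463723-15730026, Hhip at chr8:79965850-80058060, Sufu at chr19:46396896-46488804 and Gas1 at chr13:60174405-60177535. RefSeq promoter windows of 300 bases, from 250 before to 50 after the gene start, were at hand for 7 of the 9, all but Shh and Gli1. The consensus that GLI proteins bind, GACCACCCA, was searched on both strands. It was in none of the 7 windows and in 0.253% of all 32851 windows of the table. Its core ACCACCC, which lies within the consensus, was in 1 of the 7, that of Gli2, and in 4.61% of all windows. The windows of Ptch1, the classical target, and of Gli2 are shown from 5′ to 3′ on the strand of the gene, both on the minus strand, at chr13:63565686-63565985 and chr1:119053570-119053869. Both windows lay inside the span of the gene given above, at a start other than its outermost end. Capitals mark the core, read here on the opposite strand and starting 205 bases before the start of Gli2. The window of Ptch1 held 47 CpG dinucleotides and was 76.3% G or C, and that of Gli2 held 28 CpG and was 67.3% G or C, against a median of 7 CpG over all windows.
Ptch1: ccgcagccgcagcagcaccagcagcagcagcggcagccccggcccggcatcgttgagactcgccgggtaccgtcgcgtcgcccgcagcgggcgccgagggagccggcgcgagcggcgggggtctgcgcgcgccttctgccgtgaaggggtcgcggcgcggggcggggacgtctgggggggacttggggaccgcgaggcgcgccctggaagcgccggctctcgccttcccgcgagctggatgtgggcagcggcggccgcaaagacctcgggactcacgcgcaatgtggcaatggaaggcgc
Gli2: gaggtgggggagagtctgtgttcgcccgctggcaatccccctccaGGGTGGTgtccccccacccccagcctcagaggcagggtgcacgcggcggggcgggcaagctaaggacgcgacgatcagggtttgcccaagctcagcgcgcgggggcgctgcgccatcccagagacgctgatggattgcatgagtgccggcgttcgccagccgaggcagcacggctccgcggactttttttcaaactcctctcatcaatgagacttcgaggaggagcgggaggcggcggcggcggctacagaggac
These letters describe the windows and locate no binding site.

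Some replicates stood apart by genes of neighboring organs. The mean of 5 liver genes was over 1 log2 unit above the lowest replicate of the group in 5 replicates, most in B6 E15.5 replicate 1 (3.52 above) and A/J E15.5 replicate 1 (2.30 above), and the mean of 6 esophagus and upper airway genes was so in 5, most in A/J PN0 replicate 2 (1.62 above) and A/J E19.5 replicate 2 (1.59 above). The main counts were repeated without either set. B6 at E18.5 had 4 arrays, labelled 1, 2, 2b and 3. Arrays 2 and 2b were averaged as 1 replicate by their labels, though whether they share a litter is not given in the sources used here. Array 2b correlated with r of 0.993 with each of the others, and array 2 with r of 0.988 with arrays 1 and 3. With arrays 2 and 2b averaged, replicates of a group correlated with r of 0.992 to 0.997 over the probe sets with 1 gene symbol, and the number of arrays limits the precision. The p-values of limma measure the spread between pooled litters. The permutation p-values of the correlations do not, since replicates were shuffled across ages and the shared course with age enters them.

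Hedgehog mRNAs were lower at birth than at E15.5 in both strains. In A/J all 9 genes were lower at PN0 (limma, Benjamini-Hochberg adjusted p under 0.05, used for every call on a single contrast), where 25.6% of the 21789 probe sets tested were lower, and none was higher, where 25.0% were. In B6, 7 of the 9 were lower and none higher, where 26.4% of all probe sets were lower and 24.1% higher. The exceptions in B6 were Hhip, with a difference of -0.13 (95% CI -0.34 to 0.08, adjusted p = 0.3), and Gas1, with -0.06 (95% CI -0.27 to 0.14, adjusted p = 0.65). A fit with the variance of each gene alone called the 9 and 7 lower as well. The median difference of the 9 genes was -0.95 in each strain, beside -0.04 in A/J and 0 in B6 over all probe sets. At an unadjusted p under 0.05, 9 of 9 differed in A/J and 7 of 9 in B6. Fewer cells of a type and less RNA per cell cannot be told apart in these whole lungs.

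**Figure D1:**
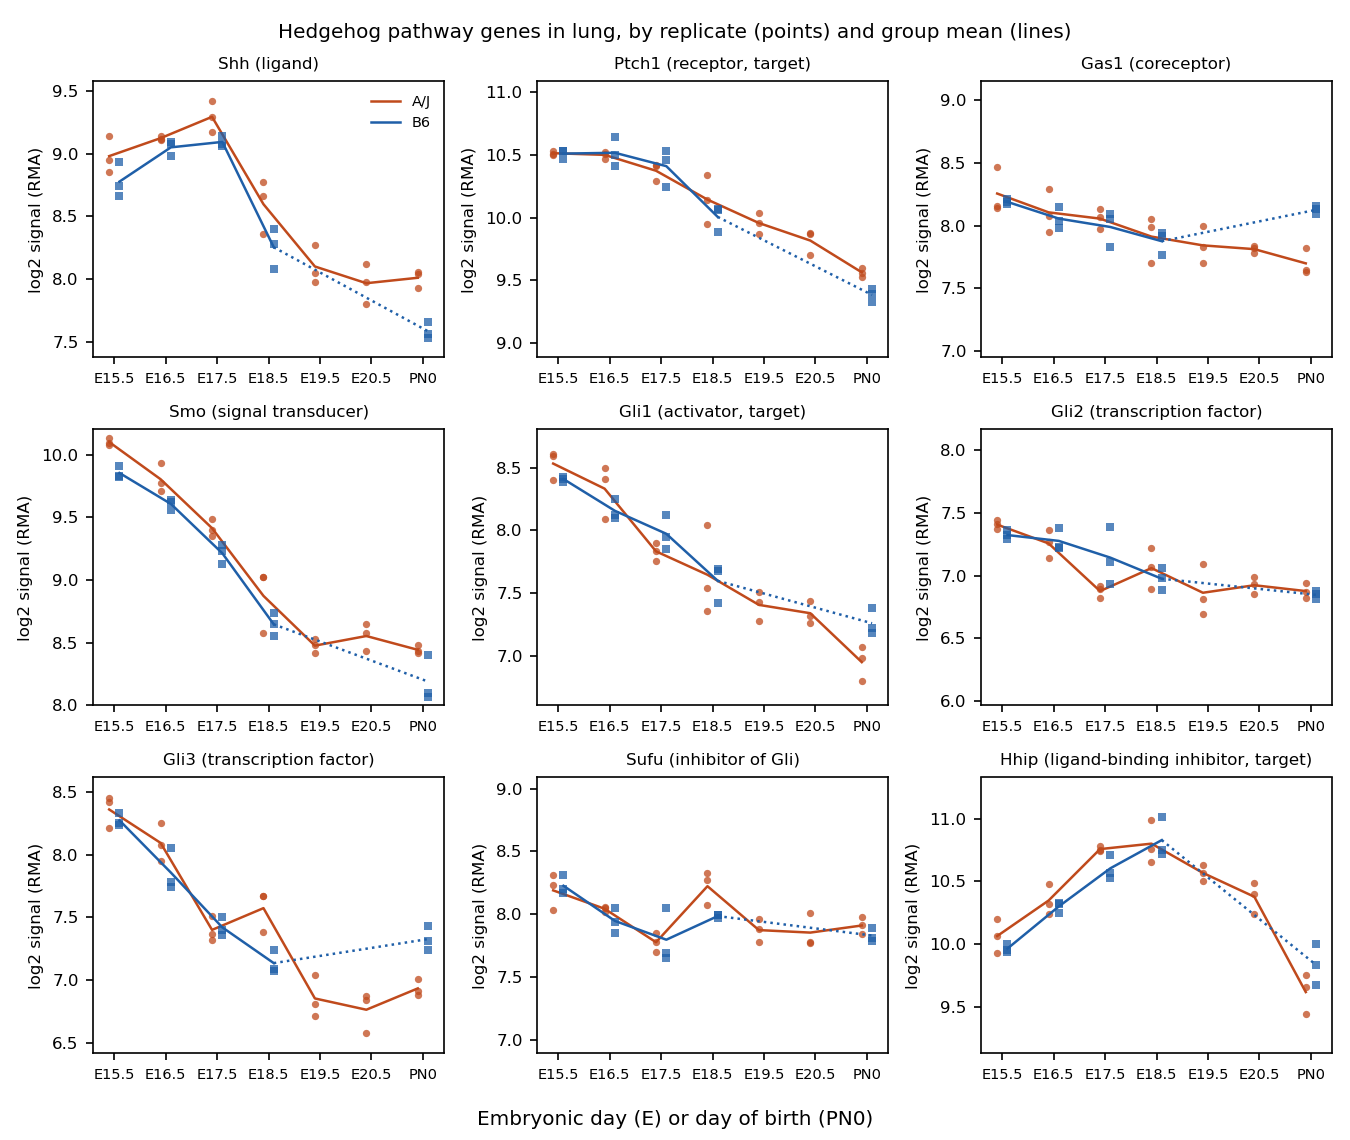
Log2 signal of the 9 genes in each replicate (points: circles A/J, squares B6) and the mean of each group (lines) against embryonic day and PN0; every panel spans the same height in log2 units, and the dotted line joins B6 at E18.5 to PN0, with no B6 group between. Shh is highest at E17.5 and Hhip at E17.5 and E18.5 before they fall, whereas Smo, Gli1 and Gli3 are highest at E15.5.

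Shh mRNA, the ligand of the epithelium, first rose and then fell. In A/J the 3 replicates measured 8.85, 8.95 and 9.14 at E15.5, 9.17, 9.42 and 9.29 at E17.5, and 8.04, 7.93 and 8.06 at PN0. In B6 they measured 8.74, 8.93 and 8.66 at E15.5, 9.06, 9.14 and 9.08 at E17.5, and 7.66, 7.53 and 7.56 at PN0. The replicates of E17.5 lay above those of E15.5, and those of PN0 below both, without overlap in either strain. The rise to E17.5 was 0.31 in A/J (SE 0.10, fold 1.24, adjusted p = 0.018) and 0.32 in B6 (SE 0.10, fold 1.25, adjusted p = 0.016). The rise in A/J lost its call without A/J E15.5 replicate 1 (0.25, adjusted p = 0.108), replicate 2 (0.30, adjusted p = 0.0532) or A/J E17.5 replicate 2 (0.25, adjusted p = 0.101), and the rise in B6 lost it when each array was centred on its median (0.22, adjusted p = 0.10) and without B6 E15.5 replicate 1 (0.30, adjusted p = 0.0549) or 3 (0.26, adjusted p = 0.0808) or B6 E17.5 replicate 2 (0.29, adjusted p = 0.0569). Without the replicates high in liver genes it was 0.25 in A/J (adjusted p = 0.136) and 0.28 in B6 (adjusted p = 0.14). The fall followed at once. From E17.5 to E18.5 Shh fell by 0.70 in A/J (SE 0.10, adjusted p = 2.8e-05) and by 0.84 in B6 (SE 0.10, adjusted p = 1.9e-06). In A/J it fell by a further 0.50 to E19.5 (adjusted p = 0.00081), a fall not called with only the groups compared (adjusted p = 0.0889). From E19.5 its means stayed close, with A/J means of 8.10 ± 0.15 (SD, n = 3) at E19.5, 7.97 ± 0.16 at E20.5 and 8.01 ± 0.07 at PN0, and neither step passed the test. Markers of epithelium, the source of the ligand, had a course of their own. Of 6 markers of epithelium, 5 were higher at PN0 than at E15.5 in each strain, among them Krt18, a keratin of simple epithelia (2.21 in A/J), and Cdh1, the epithelial cadherin (0.81). The remaining marker, Epcam, was lower (-0.36 in A/J), and it is named after its value was seen. The mean of the 6 in A/J was 9.53 at E15.5 and 10.33 at E17.5. Over the next day this mean reached 10.42, while Shh fell by 0.70. The mean was lower at E19.5 (10.09), the step at which Shh fell by a further 0.50, and was 10.58 at PN0. In B6 the mean of the 6 had no such dip, with 9.66, 10.15, 10.24, 10.26 and 10.39 in order of age. The Shh differences in B6 were -0.84 from E17.5 to E18.5 and -0.67 from there to PN0. The part of the epithelium in the course of Shh was not tested.

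Ptch1 mRNA, which encodes the receptor that the signal also induces, held its level and then declined. Its A/J replicates measured 10.50, 10.51 and 10.53 at E15.5, 10.41, 10.42 and 10.29 at E17.5, and 9.60, 9.53 and 9.56 at PN0. Its B6 replicates measured 10.47, 10.53 and 10.53 at E15.5, 10.46, 10.24 and 10.53 at E17.5, and 9.33, 9.39 and 9.43 at PN0. The groups at E15.5 and PN0 lay far apart, whereas in B6 those at E15.5 and E17.5 overlapped. The difference at E17.5 was not called in A/J (-0.14, 95% CI -0.31 to 0.03) or B6 (-0.10, 95% CI -0.27 to 0.07). By PN0 Ptch1 had fallen by 0.95 in A/J (SE 0.08, fold 0.518, adjusted p = 1e-10). In B6 it fell by 1.13 (SE 0.08, fold 0.458, adjusted p = 3.3e-12). Ptch1 stayed near its first level through the days in which Shh rose, and both genes were below their E15.5 level at E18.5 in each strain. Gas1, a coreceptor of the mesenchyme, moved less. In A/J it measured 8.47, 8.16 and 8.14 at E15.5 and 7.63, 7.82 and 7.65 at PN0, a fall of 0.56 (SE 0.10, adjusted p = 2.7e-05). In B6 it measured 8.19, 8.17 and 8.21 at E15.5 and 8.16, 8.13 and 8.09 at PN0. Every A/J replicate of PN0 lay below every A/J replicate of E15.5, and in B6 the groups lay next to each other.

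Smo mRNA, which encodes the transducer downstream of PTCH1, showed the largest fall of the 9 genes in either strain, by 1.66 in A/J (SE 0.09, fold 0.317, adjusted p = 1.3e-14). In B6 it fell by 1.66 (SE 0.09, fold 0.316, adjusted p = 1.4e-14). Its A/J means were 10.10, 9.80, 9.41, 8.87 and 8.48 on consecutive days from E15.5 to E19.5, then 8.55 at E20.5 and 8.44 at PN0. Its B6 means were 9.85, 9.61, 9.21 and 8.65 from E15.5 to E18.5 and 8.19 at PN0. Each step from E16.5 to E19.5 in A/J passed the test, and the later steps did not. With only the groups compared, the steps to E18.5 (adjusted p = 0.0694) and to E19.5 (adjusted p = 0.139) lost their calls. SD within groups was between 0.026 and 0.25.

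The 3 Gli mRNAs all fell. Gli1, whose mRNA depends on the signal, measured 8.59, 8.61 and 8.40 at E15.5 and 7.07, 6.80 and 6.98 at PN0 in A/J, and 8.41, 8.39 and 8.43 against 7.18, 7.38 and 7.22 in B6. It was lower at PN0 by 1.58 in A/J (SE 0.13, fold 0.334, adjusted p = 1.2e-11). In B6 it fell by 1.15 (SE 0.13, fold 0.451, adjusted p = 6.6e-09), and the replicates did not overlap in either strain. The difference between the strains in this change was 0.43 in the fit with an interaction and was not called (adjusted p = 0.17). Gli1 was already lower when Shh stood at its highest mean: at E17.5 it was below E15.5 by 0.70 in A/J (adjusted p = 4.1e-05) and by 0.44 in B6 (adjusted p = 0.0062). The call in B6 was lost without the replicates high in liver genes (-0.38, adjusted p = 0.0981). Gli3, the main source of repressor, measured 8.45, 8.42 and 8.21 at E15.5, 7.37, 7.51 and 7.32 at E17.5, and 6.88, 6.91 and 7.01 at PN0 in A/J. In B6 Gli3 measured 8.24, 8.33 and 8.25 at E15.5, 7.50, 7.40 and 7.36 at E17.5, and 7.31, 7.24 and 7.43 at PN0. The B6 replicates of PN0 overlapped those of E17.5, whereas all A/J replicates of PN0 lay lower. From E15.5 to PN0 Gli3 fell by 1.43 in A/J (SE 0.10, adjusted p = 2.1e-12) and by 0.95 in B6 (SE 0.10, adjusted p = 7.2e-09). Gli2, the main activator in lung mesenchyme, fell by 0.53 in A/J (SE 0.10, adjusted p = 3.6e-05) and by 0.48 in B6 (SE 0.10, adjusted p = 0.00014), and its group means spanned only 6.86 to 7.41 in A/J and 6.85 to 7.32 in B6. Sufu, which restrains the GLI proteins, fell by 0.28 in A/J (SE 0.09, adjusted p = 0.012) and by 0.40 in B6 (SE 0.09, adjusted p = 0.00056). The Sufu call in A/J was lost without A/J E15.5 replicate 1, the replicate of its group that was high in liver and heart genes (-0.22, adjusted p = 0.0788), and without A/J PN0 replicate 3 (-0.25, adjusted p = 0.0528). Sufu had its highest A/J mean at E18.5, 8.22 between 7.78 at E17.5 and 7.87 at E19.5. The rise was 0.45 (adjusted p = 0.00068) and the fall 0.35 (adjusted p = 0.0057). The fall was -0.20 after quantile normalization (adjusted p = 0.133), and with only the groups compared neither step was called (adjusted p = 0.0583 and 0.107). The median of all probe sets rose by 0.12 and fell by 0.10 in the same 2 steps. Gli2 (6.88, 7.06 and 6.86) and Gli3 (7.40, 7.57 and 6.85) also had a higher A/J mean at E18.5 than at E17.5 and E19.5. Their rises to E18.5 were not called (0.18, adjusted p = 0.16, and 0.17, adjusted p = 0.21).

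Hhip, which encodes the antagonist that binds the ligand, rose until E17.5, while Ptch1 and Gli1, the other induced genes, did not. It then fell between the last time before birth and PN0. The step from E17.5 to E18.5 was called in neither strain (0.04 in A/J, adjusted p = 0.78, and 0.22 in B6, adjusted p = 0.11). In A/J its mean was already lower before birth, at 10.80 on E18.5, 10.57 on E19.5 and 10.38 on E20.5. Neither of these steps was called (-0.23, adjusted p = 0.084, and -0.19, adjusted p = 0.56). Its A/J replicates measured 9.93, 10.06 and 10.20 at E15.5, 10.99, 10.76 and 10.65 at E18.5, 10.40, 10.49 and 10.24 at E20.5, and 9.75, 9.44 and 9.66 at PN0. Its B6 replicates measured 9.95, 10 and 9.94 at E15.5, 10.72, 11.02 and 10.75 at E18.5, and 9.67, 9.83 and 10 at PN0. Replicates at E18.5 lay above those at E15.5, and replicates at PN0 below those at the previous time, without overlap in both strains. By E17.5 Hhip had risen by 0.69 in A/J (SE 0.10, fold 1.62, adjusted p = 1.9e-06). In B6 the rise was 0.64 (SE 0.10, fold 1.56, adjusted p = 7.4e-06). Between E20.5 and PN0 in A/J, a few hours apart around birth by the methods of the study, it fell by 0.76 (SE 0.10, fold 0.590, adjusted p = 3.4e-06). The fall in B6 was -1.0 over the day from E18.5 to PN0 (SE 0.10, fold 0.502, adjusted p = 2.7e-08). At PN0 it was below its E15.5 level in A/J by 0.45 (adjusted p = 0.00038) and not detectably so in B6.

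**Figure D2:**
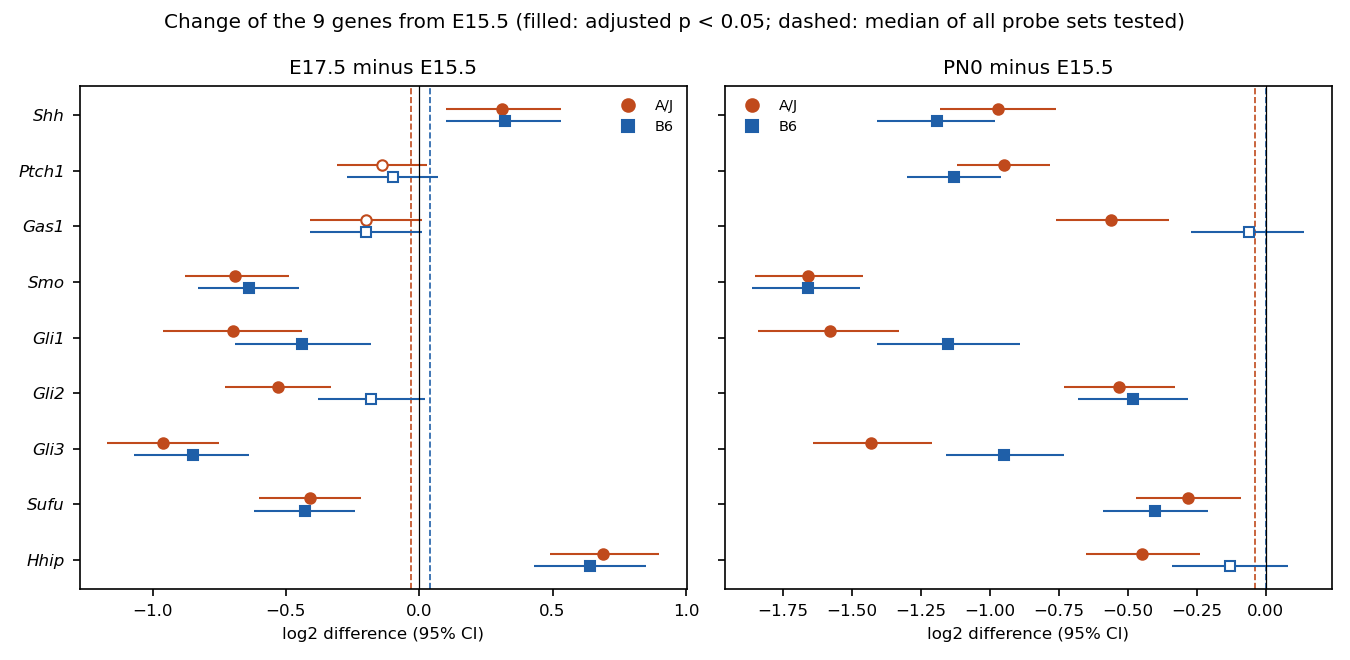
Log2 difference of each gene from E15.5 to E17.5 (left) and to PN0 (right) in A/J (circles) and B6 (squares), with 95% confidence intervals from limma; filled symbols have an adjusted p under 0.05, and the dashed lines mark the median of all probe sets tested in that strain. At E17.5 Shh and Hhip lie right of 0 and Smo, Gli1, Gli3 and Sufu left of it in both strains, and at PN0 no gene lies right of 0.

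The members changed on different days. At E16.5 no member differed from E15.5 in A/J (limma, 6.28% of all probe sets called), 3 had an unadjusted p under 0.05, and a fit with the variance of each gene alone called none. In B6 3 members were called at E16.5, Hhip higher and Gli3 and Sufu lower, where 14.0% of all probe sets were called. Without the replicates high in liver genes none of these 3 was called (adjusted p = 0.118 for Hhip, 0.116 for Gli3 and 0.232 for Sufu). Hhip also lost its call without B6 E15.5 replicate 1 or 3 or B6 E16.5 replicate 2 or 3 (adjusted p from 0.0646 to 0.0815), and Sufu without any B6 E15.5 replicate or B6 E16.5 replicate 1 or 2 (adjusted p from 0.0562 to 0.169) and after quantile normalization (adjusted p = 0.0877). At E17.5 in A/J 2 members, Shh and Hhip, were higher (16.9% of all probe sets) and 5 were lower, Smo, Gli1, Gli2, Gli3 and Sufu (20.3% of all). At E17.5 in B6 the same 2 were higher (17.6% of all) and 4 lower, Smo, Gli1, Gli3 and Sufu (21.7% of all). At this time, then, the ligand and its antagonist stood above their first level and the transducer and most Gli genes below it. With each array centred on its median, 11.7% of all probe sets were higher and 27.9% lower in B6 at E17.5, and 1 member was higher and 6 were lower. The step from E16.5 to E17.5 in A/J lowered 5 members (15.7% of all), the largest being Gli3 at -0.69. The step from E17.5 to E18.5 lowered 3 members in A/J, Shh, Smo and Ptch1 (4.32% of all; 9.25% with centred arrays). The same step lowered 5 in B6, Shh, Smo, Ptch1, Gli1 and Gli3 (10.5% of all; 6.96% with centred arrays, which left Shh, Smo and Ptch1). The ligand turned downward at this step in both strains. The decline of Ptch1 in A/J (-0.23, adjusted p = 0.038) lost its call without A/J E17.5 replicate 1 (-0.21, adjusted p = 0.103) or 2 (-0.21, adjusted p = 0.112), without A/J E18.5 replicate 1 (-0.23, adjusted p = 0.0839) or 3 (-0.13, adjusted p = 0.253), and with only the groups compared (adjusted p = 0.272). The step from E18.5 to E19.5 in A/J lowered 4 members, Shh, Smo, Gli3 and Sufu (23.2% of all; 13.4% with centred arrays). Between E19.5 and E20.5 in A/J no member was called, none had an unadjusted p under 0.05, no fit of single-gene variance called one, and 0.482% of all probe sets were called.

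Birth itself was covered by the last step of each strain. In A/J, 3 members were lower at PN0 than at E20.5, Hhip, Gli1 (-0.39, SE 0.13, adjusted p = 0.027) and Ptch1 (-0.25, SE 0.08, adjusted p = 0.031), where 7.74% of all probe sets were lower. These 3 are the members named above as induced by the signal, and the further hedgehog-responsive genes were not examined at this step. Shh differed by 0.04 over the same hours (95% CI -0.17 to 0.26). Whether the signal itself changed at birth was not tested. A/J E20.5 replicates 2 and 3 and A/J PN0 replicate 2 were high in genes of esophagus and upper airway epithelium. Without the replicates high in these genes Hhip kept its fall (-0.70, adjusted p = 0.00535), and Gli1 (-0.30, adjusted p = 0.426) and Ptch1 (-0.12, adjusted p = 0.661) lost their calls, in a comparison that then had 1 replicate at E20.5, assumed to vary like the others. Ptch1 also lost its call with centred arrays (-0.21, adjusted p = 0.083) and without any 1 of A/J E20.5 replicates 2 and 3 or A/J PN0 replicates 2 and 3 (adjusted p from 0.0707 to 0.118), and Gli1 without any 1 of A/J E20.5 replicates 1 and 2 or A/J PN0 replicates 2 and 3 (adjusted p from 0.0511 to 0.143). In B6, 5 members were lower at PN0 than at E18.5 (14.1% of all lower): Hhip, Shh (-0.67), Ptch1 (-0.62), Smo (-0.46) and Gli1 (-0.34, adjusted p = 0.046). Gli1 stood at the threshold there and lost its call with centred arrays (-0.31, adjusted p = 0.0674) and without B6 E18.5 replicate 1 or 3 or B6 PN0 replicate 1 or 3 (adjusted p from 0.119 to 0.151). The intervals differ, a full day in B6 and a few hours in A/J, so the steps were not compared with each other.

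Over the whole course, 5 members passed the F test for change with time (adjusted p under 0.01 and 2-fold between the highest and lowest group mean) in A/J, where 17.8% of all probe sets did: Shh, Smo, Gli1, Gli3 and Hhip. In B6 5 members passed as well, where 14.3% of all did: Shh, Ptch1, Smo, Gli1 and Gli3. Ptch1 in A/J (1.93-fold) and Hhip in B6 (1.99-fold) narrowly missed the fold and not the p. Gli2 and Sufu in both strains and Gas1 in A/J also passed the p and missed the fold, with ranges of 1.35-fold to 1.47-fold. The ranges of the members that passed were 2.19-fold to 3.17-fold. With no fold asked and an adjusted p under 0.05, all 9 passed in A/J and 8 in B6, all but Gas1 (adjusted p = 0.064). The share of all probe sets that passed so was not counted. In the contrast of PN0 with E15.5 alone, 50.5% of all probe sets were called in A/J and 50.4% in B6.

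Shh and the genes that its signal induces were set against each other over the replicates of each strain, 6 relations in all. With Ptch1 the Pearson r was 0.90 in A/J (rho = 0.81, n = 21) and 0.92 in B6 (rho = 0.65, n = 15), and the permutation p was 1e-05 in A/J, the smallest that 100000 permutations can give, and 2e-05 in B6 (6e-05 adjusted over the 6 relations in each; for rho the permutation p was 2e-05 and 0.0099, adjusted 0.00012 and 0.02). With Gli1 r was 0.79 in A/J (rho = 0.75) and 0.81 in B6 (rho = 0.58), with permutation p = 5e-05 and 0.00049 (adjusted 1e-04 and 0.00073; for rho 0.00019 and 0.026, adjusted 0.00057 and 0.04). With Hhip r was 0.36 in A/J (rho = 0.37) and 0.35 in B6 (rho = 0.28), and neither passed (permutation p = 0.11 and 0.2, adjusted 0.13 and 0.2; for rho 0.1 and 0.31, adjusted 0.12 and 0.31). Without the 2 replicates farthest from the median of Shh, r was 0.92, 0.82 and 0.31 in A/J and 0.86, 0.71 and 0.12 in B6 for Ptch1, Gli1 and Hhip. All points share age, which moved both genes of each pair. Within times, as deviations from the group means, r of Shh was 0.48 with Ptch1, 0.20 with Gli1 and 0.76 with Hhip in A/J, and -0.51, -0.63 and 0.18 in B6. Among replicates of the same age the relations with Ptch1 and Gli1 were weaker in A/J and opposite in sign in B6, where each time has 3 points.

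**Figure D3:**
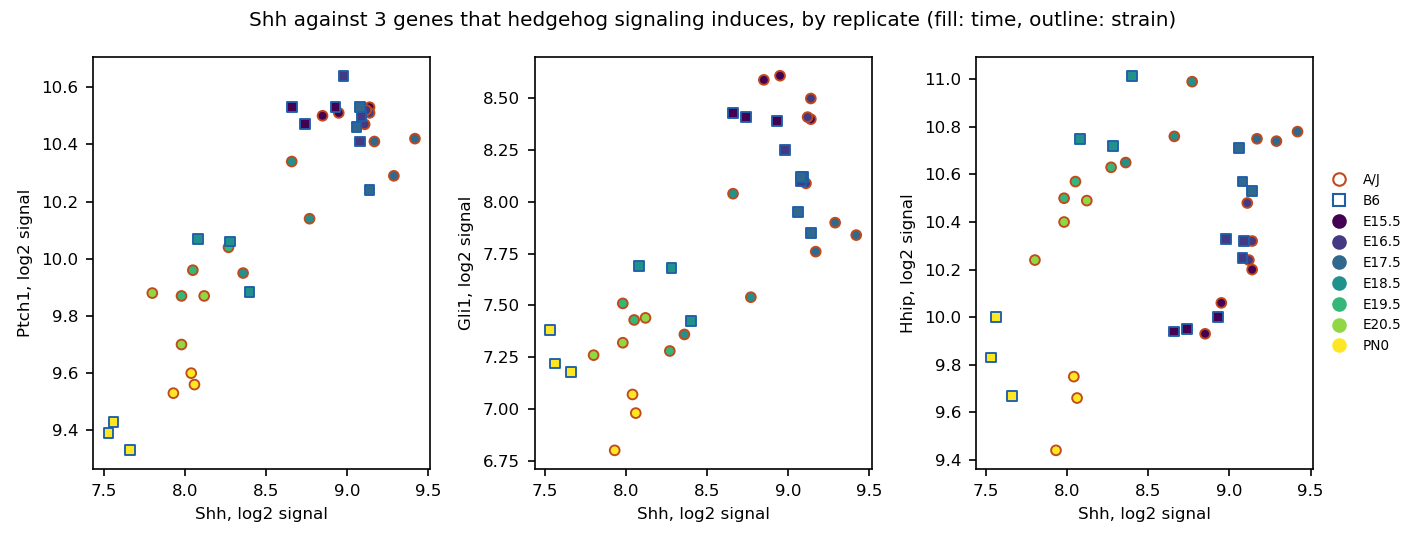
Log2 signal of Ptch1, Gli1 and Hhip against that of Shh in each replicate; the fill gives the time from E15.5 (dark) to PN0 (yellow), and the outline and shape give the strain. For Ptch1, points move right from E15.5 to E17.5 with little change in height, and then run to the lower left with age (r = 0.90 in A/J and 0.92 in B6 over all times). Points bend for Hhip, which is high at E17.5 and E18.5 and low at both ends.

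The genes whose pattern over all 36 replicates was most like that of a member were found by Pearson r, as a description of profiles that share age. Smo ran with Rfwd3, Mre11a and Parp1, genes of DNA repair (r = 0.981 each, over 19937 other genes), and Gli3 with Fen1, Ccne1 and Cdh3 (r = 0.973, 0.972 and 0.971), of which Fen1 and Ccne1 act in DNA replication and its onset. Both have many such neighbors, 981 genes with r over 0.9 for Smo and 773 for Gli3. Ptch1 ran with Adam12, Emilin1 and Chd3 (r = 0.965, 0.965 and 0.964), the first 2 of mesenchyme and its matrix, and Gli1 with Ankle1, Tert and Snrpa (r = 0.96, 0.955 and 0.955). The nearest to Shh were Pygb, Erlin2 and Zfp445 (r = 0.958, 0.955 and 0.952). Hhip had 1 gene with r over 0.9, Scd2, a fatty acid desaturase (r = 0.931), followed by the matrix genes Col6a3 (r = 0.896) and Svep1 (r = 0.894). Gli2, Sufu and Gas1 had none, and their nearest genes were Ints1, Pdcd11 and Kif21b (r = 0.893, 0.887 and 0.887), Lrrc42, Maz and Mta1 (r = 0.827, 0.825 and 0.807), and Adamts19, Rbm8a and Ogfr (r = 0.796, 0.79 and 0.79). Among the members Smo and Gli1 were most alike (r = 0.93), and Hhip was unlike Smo (r = 0.0248) and Gli1 (r = 0.09).

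The strains were then compared at each shared time. At E15.5, E16.5 and E17.5 no member differed between B6 and A/J by limma, where 2.24%, 7.27% and 10.1% of all probe sets were called. At an unadjusted p under 0.05 the counts of members were 1, 2 and 2, and the fit with single-gene variance called none. At E18.5 B6 had 3 members below A/J, where 27.3% of all probe sets were lower and 3.75% higher, with a median over all of -0.13. Shh differed by -0.34 (SE 0.10, adjusted p = 0.014), with A/J replicates at 8.77, 8.66 and 8.36 and B6 replicates at 8.28, 8.40 and 8.08, which overlap. The highest B6 replicate lay above the lowest of A/J. Gli3 differed by -0.44 (SE 0.10, adjusted p = 0.0025), with A/J at 7.67, 7.67 and 7.38 and B6 at 7.24, 7.08 and 7.09, which do not overlap. Sufu differed by -0.24 (SE 0.09, adjusted p = 0.049), with A/J at 8.33, 8.27 and 8.07 and B6 at 7.97, 7.995 and 7.99. The B6 replicates of Sufu lay together just below the lowest of A/J. With each array centred on its median, which left 11.5% of all probe sets lower and 6.11% higher, only Gli3 was called (-0.35, adjusted p = 0.024), and Shh (-0.25, adjusted p = 0.095) and Sufu (-0.15, adjusted p = 0.3) were not. Leaving out 1 replicate gave between 1 and 5 members lower: 1 without A/J E18.5 replicate 1 or B6 E18.5 replicate 3, and 5 without A/J E18.5 replicate 3. Sufu lost its call in most of these fits, with an adjusted p of up to 0.195. When only the 2 groups at E18.5 were fitted, limma called none. With array 2b in place of array 2, Smo was called (-0.28, adjusted p = 0.0214) and Sufu was not (-0.22, adjusted p = 0.0652). With array 2b left out, Shh was not called (-0.29, adjusted p = 0.0537). The mean of the esophagus and upper airway genes was 7.16 to 7.40 in A/J and 5.71 to 6.38 in B6 at E18.5, with 4 of 6 genes called lower in B6 and Krt13 at -2.51. The mean of 6 smooth muscle genes was 9.27 to 9.38 in A/J and 8.52 to 8.80 in B6, with all 6 called lower in B6. The mean of 5 proliferation genes was 8.83 to 9.17 in A/J and 8.06 to 8.70 in B6, with all 5 called lower in B6. The mean of the epithelial genes was 10.35 to 10.48 in A/J and 10.22 to 10.31 in B6, with 2 of 6 called lower in B6, Krt8 (-0.32) and Nkx2-1 (-0.28), the latter chosen after its value was seen. The part of any of these in the differences was not tested.

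**Figure D4:**
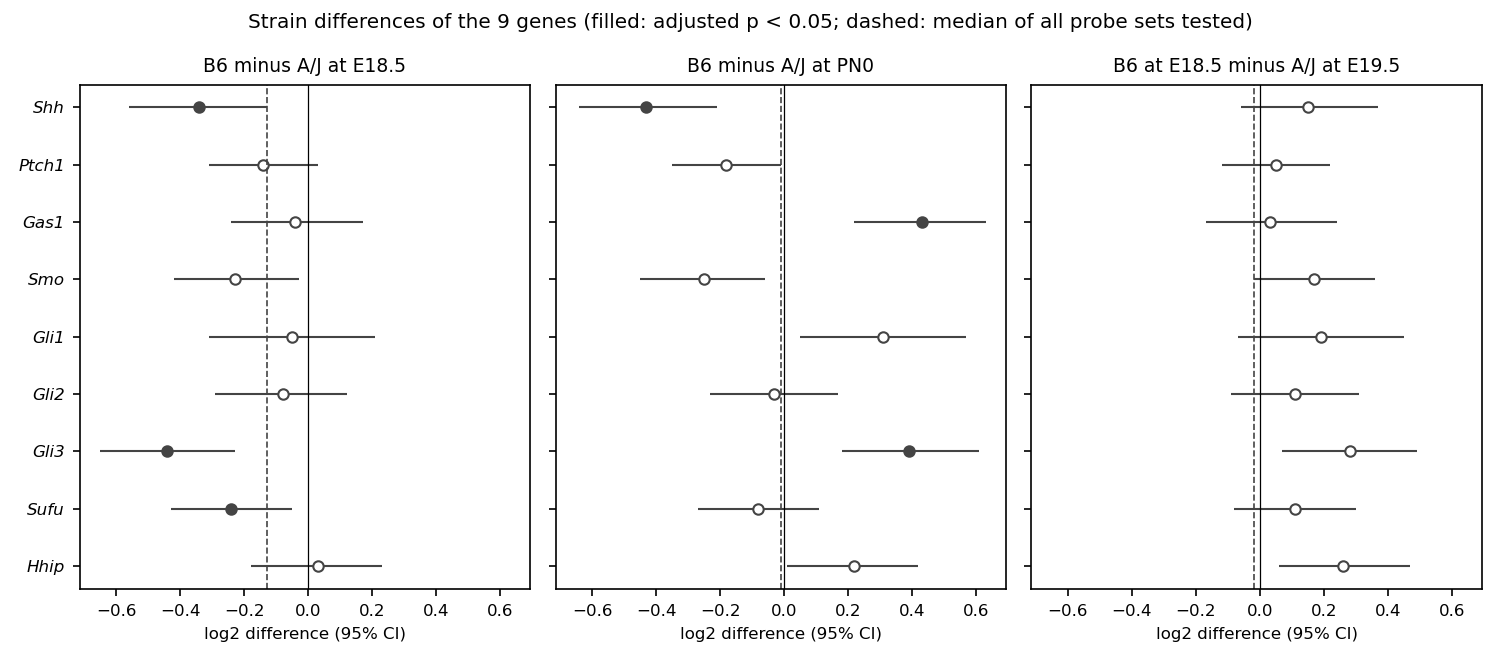
Log2 difference between strains for each gene at E18.5 (left), at PN0 (middle) and 1 day before birth, B6 at E18.5 against A/J at E19.5 (right), with 95% confidence intervals from limma; filled circles have an adjusted p under 0.05, and the dashed line marks the median of all probe sets tested. Gli3 lies left of 0 at E18.5 and right of 0 at PN0, Shh lies left of 0 at both, and no gene is filled in the comparison a day before birth.

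A comparison by distance to birth set B6 at E18.5 against A/J at E19.5. No member was called there by limma, where 9.53% of all probe sets were, and 2 members had an unadjusted p under 0.05, Gli3 (0.28, 95% CI 0.07 to 0.49, adjusted p = 0.089) and Hhip (0.26, 95% CI 0.06 to 0.47, adjusted p = 0.10), both higher in B6. The fit with single-gene variance called none. Gli3 passed with quantile-normalized arrays (0.31, adjusted p = 0.0441), with array 2b in place of array 2 (0.33, adjusted p = 0.0438) and without A/J E19.5 replicate 3 (0.38, adjusted p = 0.0337), and Hhip passed with array 2b as a 4th replicate (0.31, adjusted p = 0.0408). The interval for Shh ran from -0.06 to 0.37 and that for Ptch1 from -0.12 to 0.22. A day earlier, B6 at E17.5 against A/J at E18.5, 4 members were higher in B6 (10.8% of all probe sets; 13.9% with centred arrays) and 1 was lower (32.7% of all; 27.6% with centred arrays). Shh differed by 0.50 (SE 0.10, adjusted p = 0.00038) and Sufu by -0.43 (SE 0.09, adjusted p = 0.00051), both without overlap. Smo differed by 0.34 (adjusted p = 0.0047), Gli1 by 0.33 (adjusted p = 0.036) and Ptch1 by 0.27 (adjusted p = 0.011). These last 3 lost their calls without A/J E18.5 replicate 3 (0.19, 0.18 and 0.17), and with only the groups compared Shh alone kept its call. Gli1 was also lost without A/J E18.5 replicate 1 or B6 E17.5 replicate 1 or 3, and Gli1 and Ptch1 both without B6 E17.5 replicate 3, a replicate high in esophagus genes (0.25 and 0.21).

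At PN0 Gas1 and Gli3 were higher in B6 than in A/J, where 6.37% of all probe sets were, and Shh was lower, where 12.8% of all were. Gas1 differed by 0.43 (SE 0.10, fold 1.34, adjusted p = 0.0031), Gli3 by 0.39 (SE 0.10, fold 1.31, adjusted p = 0.0076) and Shh by -0.43 (SE 0.10, fold 0.744, adjusted p = 0.0041), each without overlap of the replicates. The PN0 replicates of Ptch1, Smo and Gli1 did not overlap either. How many of all probe sets had no overlap was not counted, so the lack of overlap adds nothing to the calls. Ptch1 at -0.18 (adjusted p = 0.14), Smo at -0.25 (adjusted p = 0.059) and Gli1 at 0.31 (adjusted p = 0.085) did not pass. With each array centred on its median Smo passed as well (-0.27, adjusted p = 0.042). Without the replicates high in esophagus genes, Gas1 (0.49), Gli3 (0.38) and Shh (-0.47) kept their calls. Smooth muscle genes were lower in B6 at PN0 as well, 4 of 6, with means of 9.11 to 9.36 against 9.61 to 9.93 in A/J, and all 5 measured genes of proliferation were higher in B6, with means of 7.50 to 7.61 against 6.68 to 6.96. Their part in the member differences was not tested, and strain and age after conception cannot be told apart at PN0.

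The time courses of 2 members differed between the strains by limma's F test of the strain by time interaction over the 5 shared times, Gli3 (adjusted p = 0.0035) and Gas1 (adjusted p = 0.044), where 14.5% of all probe sets were called. For Gas1 the contrast at PN0 was called, with a change from E15.5 that was 0.49 higher in B6 (SE 0.14, adjusted p = 0.038). For Gli3 the contrast was -0.35 at E18.5 (SE 0.15, adjusted p = 0.15) and 0.48 at PN0 (SE 0.15, adjusted p = 0.051), opposite in sign and neither called alone. Gli3 at PN0 stood at the threshold and was called in 15 alternatives, among them quantile normalization (0.48, adjusted p = 0.0423) and dim probe sets left out (0.48, adjusted p = 0.0358). The contrast of Gas1 lost its call in 11 alternatives: without the replicates high in liver genes (0.39, adjusted p = 0.2), with all probe sets tested (0.49, adjusted p = 0.0504), and without A/J E15.5 replicate 1 (0.39, adjusted p = 0.129), A/J PN0 replicate 1 or 3, or any B6 replicate of E15.5 or PN0 (adjusted p from 0.0524 to 0.0842). For the other 7 genes the adjusted p of the F test was between 0.17 and 0.99, which does not show that their courses were alike.

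The wider pathway was followed through 36 further genes in 5 lists of release, reception, transduction, GLI processing and response. From E15.5 to PN0, 6 of the 36 were higher in A/J and 17 lower (median -0.20), against 7 higher and 19 lower in B6 (median -0.24). Of all probe sets 25.0% were higher and 25.6% lower in A/J, and 24.1% and 26.4% in B6, which is the background for the list counts that follow. Among the 8 genes that process and release the ligand, A/J had 2 higher and 3 lower, and B6 had 3 higher and 2 lower. Scube2, a secreted protein that carries the ligand away from its source, rose by 1.47 in A/J (SE 0.10, adjusted p = 2e-13) with 1.32 for B6, whereas Hhat, the acyltransferase that attaches palmitate to it, fell (-1.28 in A/J, -1.12 in B6). Scube3 fell (-0.65 in A/J, -0.50 in B6), and the desert hedgehog ligand Dhh rose (0.62 in A/J, 0.46 in B6). Among the 4 measured coreceptors, A/J had 1 higher and 2 lower, and B6 had 1 higher and 3 lower. Boc, which binds the ligand beside PTCH1, fell (-0.38 in A/J, -0.66 in B6), as did Gpc3, a glypican that competes for it (-0.54 in A/J, -0.42 in B6). Cdon, a partner of Boc, was lower in B6 (-0.51) and had a difference of -0.35 in A/J (adjusted p = 0.057). Lrp2, an endocytic receptor of epithelia, rose in A/J (2.06, SE 0.14) and in B6 (0.53).

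Among the 9 measured genes of the cilium and of transduction, A/J had 1 higher and 5 lower, and B6 had 6 lower. The falls included those of Evc and Evc2, partners of SMO at the base of the cilium, with -1.64 and -1.04 in A/J and -1.35 and -0.99 in B6, and that of Gpr161, a ciliary receptor that restrains the pathway, with -0.80 and -0.85. Stk36, a kinase needed for motile cilia, rose by 0.75 in A/J (adjusted p = 6.3e-07) and had a difference of -0.15 in B6 (adjusted p = 0.26). Among the 7 measured genes that process GLI proteins, A/J had 2 lower and none higher, and B6 had 1 higher and 2 lower. Spop, an adaptor for GLI degradation, fell (-0.39 in A/J, -0.45 in B6), as did Cul3, its ubiquitin ligase scaffold (-0.22 and -0.20), and Gsk3b, a kinase that primes GLI processing, rose in B6 (0.36), with 0.20 in A/J (adjusted p = 0.051). All differences in this list lay between -0.39 and 0.20 in A/J.

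Among the 8 genes of mesenchyme and growth that respond to hedgehog, A/J had 2 higher and 5 lower, and B6 had 2 higher and 6 lower. Mycn, a driver of growth, fell most (-2.13 in A/J, SE 0.14, adjusted p = 5.1e-13, and -2.29 in B6), followed by Foxl1, a forkhead factor of mesenchyme (-1.41 in A/J, -1.65 in B6). Foxf1, a forkhead factor of lung mesenchyme and endothelium, ran the other way, with a rise of 0.95 in A/J and 1.04 in B6, while its relative Foxf2 fell (-0.53 in A/J, -0.58 in B6). Bmp4, a growth factor of the distal lung, fell in B6 (-1.07, adjusted p = 7.6e-10) and had a difference of 0.01 in A/J (adjusted p = 0.93), and at PN0 the difference of B6 from A/J was -1.26 (adjusted p = 2.6e-09). Bmp4 was chosen after its values were seen. Between strains, none of the 36 genes was higher in B6, 11 were lower at E18.5 (30.6%, beside 27.3% of all probe sets) and 6 at PN0 (16.7%, beside 12.8% of all), shares near those of all probe sets. Among the 6 were Lrp2 (-1.65, adjusted p = 2.6e-09) and Stk36 (-0.88, adjusted p = 9.4e-07).

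**Figure D5:**
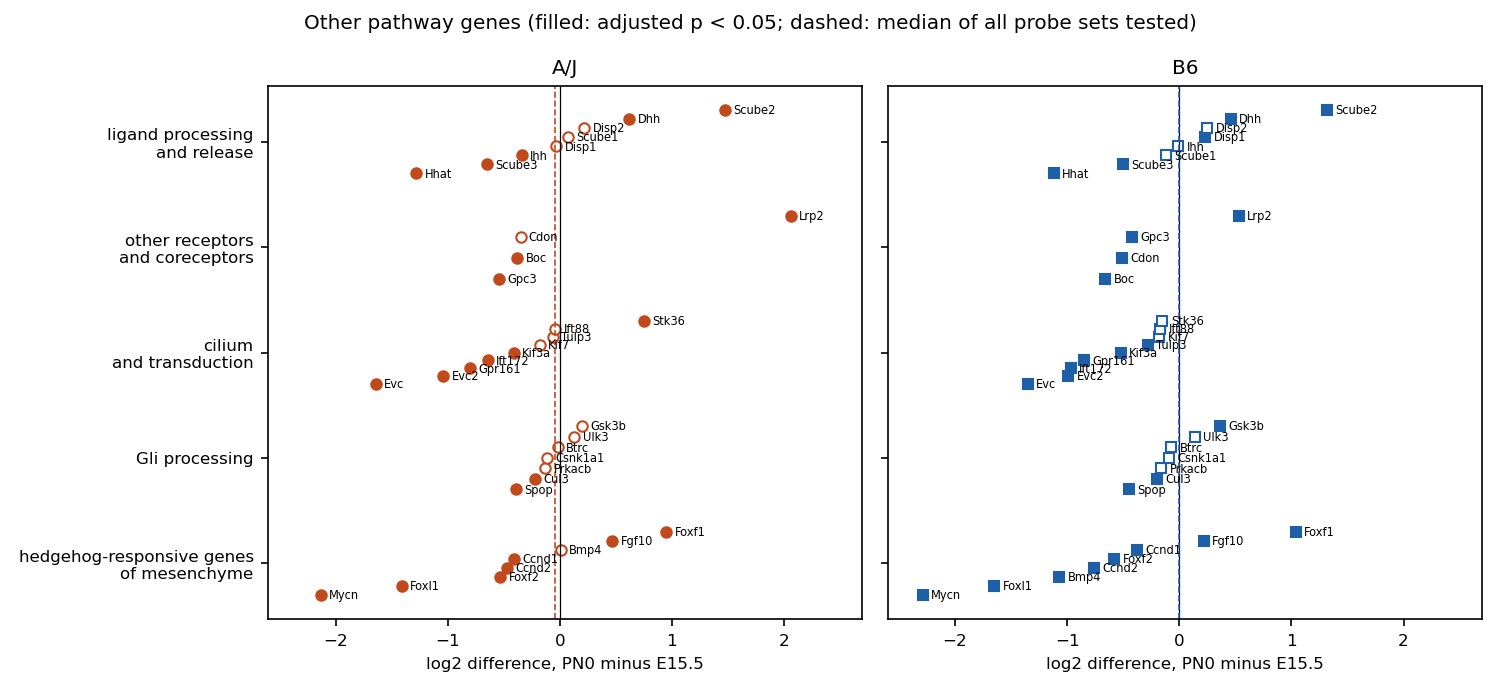
Log2 difference from E15.5 to PN0 for the 36 further pathway genes in A/J (left, circles) and B6 (right, squares), by list; filled symbols have an adjusted p under 0.05, and the dashed lines mark the median of all probe sets tested. Scube2, Lrp2 and Foxf1 lie right of 0 and Mycn, Foxl1, Evc and Hhat left of it in both strains.

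The marker lists moved with age beside the members. Mesenchyme genes were divided, 3 of 6 higher and 3 lower at PN0 in each strain, with a median of -0.05 in A/J and -0.16 in B6. Tcf21 rose by 2.04 in A/J and Col3a1 fell by 1.17. All 5 measured genes of proliferation fell, with a median of -3.23 in A/J and -2.66 in B6 and with Bub1, a kinase of the mitotic checkpoint, at -4.51 in A/J. Endothelial genes (4 of 4 higher in A/J, 3 of 4 in B6) and immune genes (3 of 3 in each) rose. Heart genes were higher at PN0, 4 of 5 in each strain, with Myl7 at 1.76 in A/J. Without the replicates high in liver genes, 8 members were lower at PN0 in A/J and 7 in B6, and without those high in esophagus genes 9 and 7. The same exclusions left 3 and 2 members lower in B6 at E18.5, and 2 higher and 1 lower at PN0 under each. They left 1 with an interaction under each, and 5 changed over time in each strain. Neither set held a replicate of E18.5, and the liver set held none of PN0. The strain differences there were thus unchanged, and only the spread and the adjustment could move the calls. Replicates were flagged against the lowest of their own group. Genes high throughout a group, as those of esophagus in A/J at E18.5, were therefore not addressed. The part of changing cell numbers in the falls of the members was not tested.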

How the data were processed

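Right lungs of 3 male fetuses or pups of a litter were pooled per replicate. The deposited values were log2 signals of 35556 probe sets on 37 arrays, which the authors had made with RMA (Expression Console 1.1, Affymetrix). A single gene symbol was given for 21789 of them, no symbol for 12146 and more than 1 for 1621. Annotation of probe sets followed the array platform. Groups were taken from sample labels. Means of the 12 groups were fitted to all probe sets in limma 3.58.1 (R 4.3.3; prior df 2.83, residual df 24), and p-values of the 21789 were adjusted by Benjamini-Hochberg. F tests over time stood in for the functional model of the study. Permutation tests, motif searches and figures used Python 3.11.15. Named genes were the 9 members, up to 4 per other list with the largest difference from E15.5 to PN0 in A/J, and the 3 most similar genes of each member. Members and lists were chosen with earlier results of these data known. Alternatives were centring, quantile normalization, a filter on dim probe sets, other priors, thresholds and groups, array 2b handled otherwise, a replicate block and leaving out replicates. The fit was tested on simulated data. Whether sequence variants of A/J touch the probes was not tested.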

Additional observations from a re-analysis of the deposited data

Results flagged for a closer look

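The course of 2 genes over the 5 shared times differed between the strains by limma's F test of the interaction, where 14.5% of all probe sets were called. For Gli3 the adjusted p was 0.0035. Its B6 mean lay below that of A/J at E18.5 (7.14 against 7.57) and above it at PN0 (7.33 against 6.93). For Gas1 the adjusted p was 0.044. Its change from E15.5 to PN0 was 0.49 higher in B6 (SE 0.14, adjusted p = 0.038), with means of 8.13 in B6 and 7.70 in A/J at PN0 after 8.19 and 8.26 at E15.5. That contrast lost its call in 11 alternatives, among them the fit without A/J E15.5 replicate 1 (0.39, adjusted p = 0.129). At PN0 age after conception and strain cannot be told apart.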

How the results depend on the processing

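Of 234 single-gene differences under 52 alternatives (12168 pairs), 11890 kept their side of the threshold, 216 lost the call and 62 gained it. No difference called in either fit of a pair changed its direction. Differences without a call could change sign, as for Gli1 between strains at E18.5, from -0.19 to 0.15 when leaving out 1 replicate. In 36 of the alternatives 1 replicate was left out, often outside the groups compared, which leaves the difference itself unchanged. The 3 members lower in B6 at E18.5 were 1 with centred arrays, 1 after quantile normalization, 0 with only the groups compared, 0 at a 1.5-fold threshold and 1 to 5 when leaving out 1 replicate. At PN0 the 1 member lower in B6 became 2 with centred arrays, 2 with dim probe sets left out, 2 with a trended prior, 0 at 1.5-fold and 1 to 2 when leaving out 1 replicate (2, with Smo, without A/J E18.5 replicate 3 or B6 PN0 replicate 3). The 2 members higher there became 1 with only the groups compared, 0 at 1.5-fold and 2 to 3 when leaving out 1 replicate. The 2 members with an interaction became 1 after quantile normalization, 1 with all probe sets tested, 1 with only the groups compared, 1 with array 2b left out, 1 at an adjusted p under 0.01, 1 without the replicates high in esophagus genes, 1 without those high in liver genes and 1 to 2 when leaving out 1 replicate: 1 without A/J E16.5 replicate 3, E17.5 replicate 1 or 3, E18.5 replicate 2, E19.5 replicate 1, E20.5 replicate 2 or 3, PN0 replicate 1 or 3, any B6 replicate at E15.5 or PN0, B6 E16.5 replicate 1 or 3, or B6 E18.5 replicate 3. The 9 members lower in A/J at PN0 became 5 at 1.5-fold and 8 to 9 when leaving out 1 replicate, and the 7 lower in B6 became 5 at 1.5-fold. With an adjusted p under 0.05 and no fold, 9 members changed over time in A/J and 8 in B6, in place of 5 each. The share of all probe sets at that threshold was not counted. The cause was not tested, beyond the stricter or looser thresholds. The exclusions by liver and esophagus genes, and a prior from the probe sets with 1 symbol, were chosen after seeing the data. Replicate numbers were only names: same-numbered replicates correlated between -0.14 and 0.26 in their deviations, and not every replicate correlated best with its own number. With the replicate block 9 members were lower in A/J and 7 in B6 at PN0, B6 had 2 below A/J at E18.5 (Sufu at -0.24, adjusted p = 0.0534), 2 were higher and 1 lower at PN0, 2 had an interaction and 5 changed over time in each strain.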
